A study of Homo sapiens with 12 samples.

Results

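Expression of 9 genes of the eIF2 stress switch was examined in SHI-1 cells, an acute myeloid leukaemia line that carries the MLL-AF6 fusion. They were the genes of the eIF2 subunits (EIF2S1, EIF2S2 and EIF2S3), of the kinases that phosphorylate the alpha subunit (EIF2AK1 to EIF2AK4), of the mitochondrial protease OMA1 and of the phosphatase subunit PPP1R15B, chosen by name. All 9 are among the 14866 genes listed and among the 13502 genes tested, those that reached a normalized count of 10 in 3 libraries or more. The cells of 4 groups, with 3 libraries each, were harvested after 16 h. Control cells received DMSO, the solvent. The DSF group received 0.3 µM disulfiram with 1 µM copper, the NSM group received 5 µM niclosamide, and the DSF+NSM group received both drugs with the copper. Disulfiram is a drug against alcohol dependence that forms a complex with copper, and niclosamide is an anthelmintic that uncouples mitochondria. Copper is named in the labels only for the groups with disulfiram, so disulfiram and copper cannot be told apart. SHI-1 is a single line, and MLL-AF6 is carried by all groups.

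The eIF2 complex brings the initiator methionyl-tRNA to the ribosome and is recycled by the exchange factor eIF2B. Under stress, EIF2AK1 (HRI, sensing haem loss and mitochondrial signals), EIF2AK2 (PKR, sensing double-stranded RNA), EIF2AK3 (PERK, sensing unfolded proteins in the endoplasmic reticulum) or EIF2AK4 (GCN2, sensing amino acid shortage) phosphorylates the alpha subunit, which blocks that exchange, lowers general translation and favours the translation of ATF4. OMA1, a protease of the inner mitochondrial membrane, cleaves DELE1, which then activates EIF2AK1, while PPP1R15B guides protein phosphatase 1 to the alpha subunit under basal conditions. Only RNA was measured here, so the values say nothing of phosphorylation or of protein.

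Values were normalized counts per gene as deposited, and depth was estimated at 10.2 to 19.0 per library in units of 1000000 reads. The libraries were not on equal sums. Their median sums, in units of 1000000, went from 14.2 (DMSO) over 15.3 (DSF) and 17.3 (NSM) to 25.2 (DSF+NSM), and the groups did not overlap. Scaling all libraries to the same sum moves the median change of all genes from 0.03 to -0.75 (log2) for DSF+NSM against DMSO, from 0.01 to -0.25 for NSM and from 0.05 to -0.05 for DSF. The share of called genes that were higher then goes from 53.6% to 16.7% after DSF+NSM, from 51.7% to 32.9% after NSM and from 66.6% to 49.3% after DSF. The share of the 6 rRNA genes listed moved with the groups, from 1.88 to 3.58% in DMSO to 9.63 to 11.7% in DSF+NSM, and its part in the results was not tested. Replicate 3 of NSM stood apart, with a Spearman correlation of 0.952 and 0.959 with the other 2 NSM libraries against 0.981 to 0.996 for all other pairs within a group, so results that rest on it are given with and without it. To a lesser degree replicate 3 of DSF+NSM also stood apart. Its correlations with the other 2 DSF+NSM libraries were 0.981 and 0.983, against 0.990 between those, and its estimated depth of 10.2 was the lowest of all. All 10 myeloid markers were present in every library and did not move together. MPO made up most of their summed value, at 54161 to 62640 in DMSO, 29316 to 36629 after DSF, 14454 to 18630 after NSM and 19671 to 22044 after DSF+NSM. SPI1 went the other way, with means of 4560 in DMSO, 5263 after DSF, 7427 after NSM and 5224 after DSF+NSM, while CD33 had means of 834, 954, 709 and 820. Of lymphoid markers, CD79A was at 21.9 to 26.6 in DMSO, 25.2 to 30.2 after DSF, 17.7 to 33.5 after NSM and 11 to 92 after DSF+NSM. CD3E was at 69.5 to 76.5 in DMSO, 80.7 to 90.6 after DSF, 109 to 167 after NSM and 131 to 181 after DSF+NSM. The part of these shifts in the results below was not tested.

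In the main fit, of the deposited values over all 12 libraries, at most 7 of the 9 genes were called changed against DMSO. Calls were made by limma on log2(normalized count + 1) with adjusted p under 0.05. After DSF 1 of 9 changed (lower), where 17.8% of all genes tested changed and 5.95% were lower. After NSM 4 of 9 changed, where 49.1% of all genes changed, with 3 higher (background 25.4%) and 1 lower (23.7%). After DSF+NSM 7 of 9 changed, where 52.8% of all genes changed, with 3 higher (28.3%) and 4 lower (24.5%). The shares after NSM and DSF lie near the background. Without NSM replicate 3 the counts were 4, 7 and 9, where 41.2%, 59.9% and 67.8% of all genes changed. With equal sums they were 1, 4 and 8, where 18.2%, 49.9% and 67.5% of all genes changed. The 3 comparisons share the DMSO libraries. In bulk RNA fewer cells of a type and less RNA per cell cannot be told apart.

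**Figure D1:**
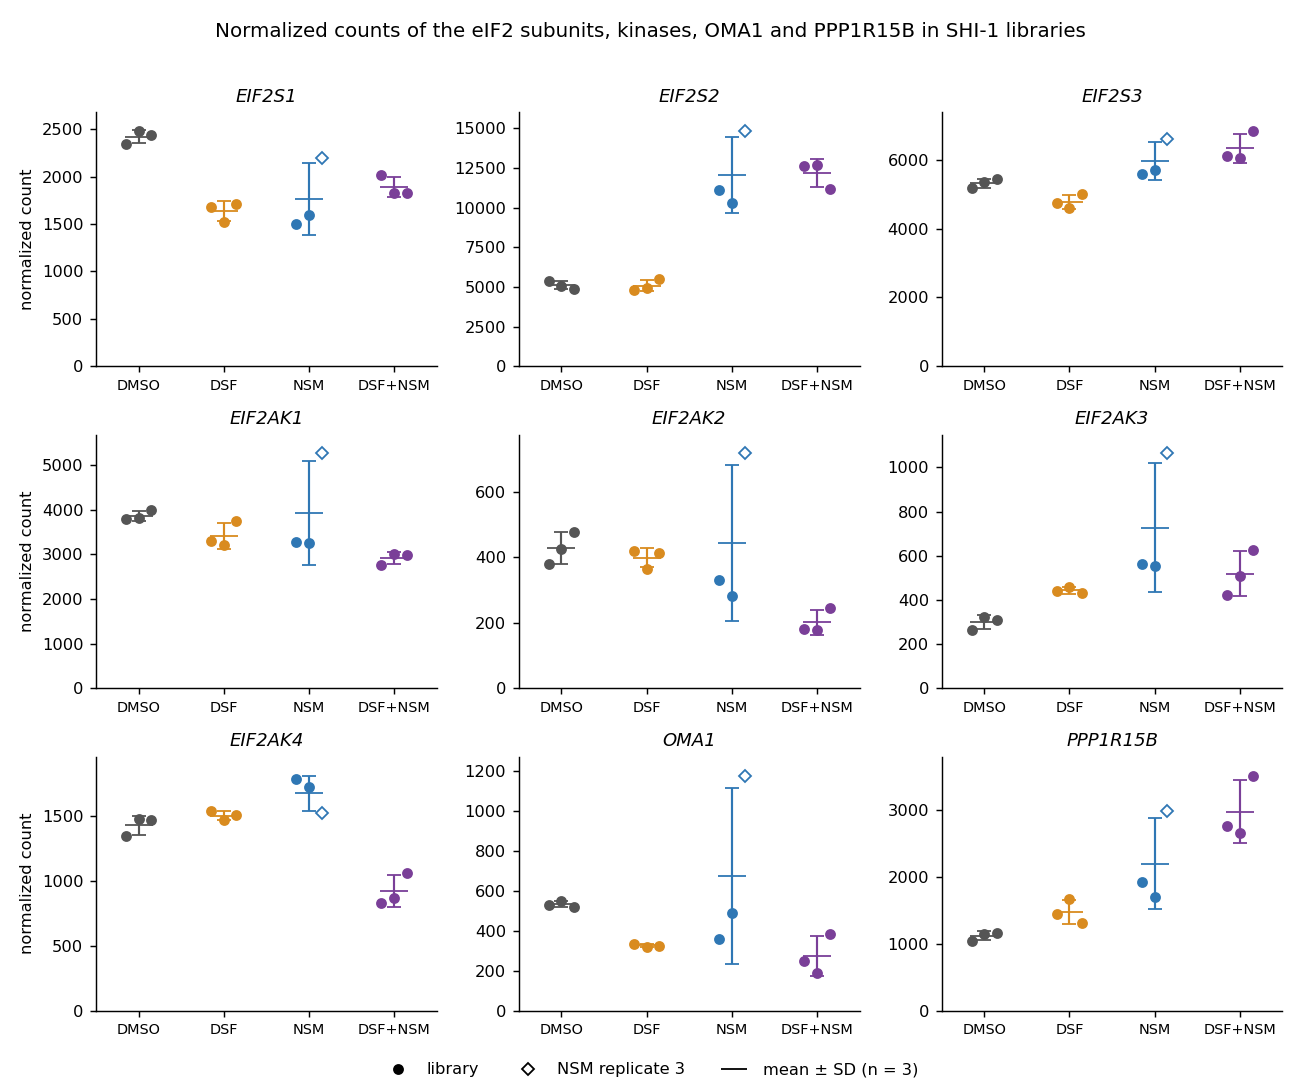
Normalized counts of the 9 genes in each of 12 libraries (y axes start at 0, with a scale for each gene); x axis, group; points, libraries; open diamond, NSM replicate 3; bars, mean ± SD (n = 3). EIF2S2 lies at 10269 or above in every NSM and DSF+NSM library and at 5471 or below in the others, and the open diamond is the highest NSM value for 8 of the 9 genes.

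Among the subunits, the genes parted. EIF2S1 encodes the alpha subunit, the one that is phosphorylated. Its normalized count was 2343, 2477 and 2435 in DMSO, 1683, 1517 and 1713 after DSF, 1502, 1595 and 2194 after NSM and 2013, 1824 and 1829 after DSF+NSM. Every treated library lay below every DMSO library. The log2 fold change against DMSO was -0.56 (SE 0.14, adjusted p = 0.0171, limma) after DSF, -0.48 (SE 0.14, adjusted p = 0.0139) after NSM and -0.36 (SE 0.14, adjusted p = 0.0479) after DSF+NSM. The treated groups did not differ from each other by the test, the closest being DSF+NSM against DSF with 0.21 (95% interval -0.10 to 0.51). Without NSM replicate 3 the fall after NSM was -0.64 and the difference of 0.21 between DSF+NSM and DSF passed the test (adjusted p = 0.0391, limma). The call after DSF was lost when a DMSO library or DSF replicate 1 or 2 was left out (adjusted p up to 0.0899), and that after NSM without NSM replicate 1 or 2 or with only those groups in the fit (adjusted p up to 0.0682). That after DSF+NSM was lost in 13 of 23 alternatives (adjusted p up to 0.124), among them leaving out any DMSO, DSF or DSF+NSM library or NSM replicate 2, while with equal sums it was -1.14. EIF2S1 was lower than in DMSO under every scaling.

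EIF2S2, the beta subunit, which contacts the factors eIF5 and eIF2B, rose with niclosamide. It stood at 5367, 5039 and 4876 in DMSO and at 4817, 4951 and 5471 in DSF. In NSM it reached 11096, 10269 and 14805 and in DSF+NSM 12643, 12704 and 11180. DMSO and DSF overlapped, and both lay below all 6 libraries with niclosamide. The fold against DMSO was 2.34 after NSM (log2 1.23, SE 0.14, adjusted p = 1.81e-05, limma) and 2.39 after DSF+NSM (log2 1.26, SE 0.14, adjusted p = 9.94e-06), and it passed the test under all alternatives, at 0.96 after NSM and 0.47 after DSF+NSM with equal sums. DSF changed it by -0.01 (95% interval -0.30 to 0.29). NSM and DSF+NSM differed by 0.03 (95% interval -0.26 to 0.32).

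EIF2S3, the gamma subunit, which binds GTP and the tRNA, stayed within 0.25 (log2) of DMSO in each group. Its normalized counts ran from 5183 to 5431 in DMSO, 4606 to 5008 after DSF, 5586 to 6610 after NSM and 6056 to 6831 after DSF+NSM. Only NSM and DSF+NSM overlapped. No change against DMSO passed the test, with -0.15 after DSF (95% interval -0.38 to 0.07), 0.16 after NSM (-0.06 to 0.39) and 0.25 after DSF+NSM (0.02 to 0.47, adjusted p = 0.0612, limma), and the last value was a called fall of -0.54 (adjusted p = 0.00128) with equal sums. It was a called rise of 0.25 without NSM replicate 3 (adjusted p = 0.00918, limma) and with only DSF+NSM and DMSO in the fit (adjusted p = 0.0253). Against DSF it was higher in NSM by 0.32 (adjusted p = 0.0269, limma) and in DSF+NSM by 0.40 (adjusted p = 0.00781, limma), of which the latter was -0.28 with equal sums and the former not called there. The call for NSM against DSF was also lost without DSF replicate 1 or 2 and with only those groups in the fit.

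A ratio of 2 genes within a library does not depend on the factor for the library. These ratios were chosen after the data were seen. EIF2S2 to EIF2S1 was 2.29, 2.03 and 2.00 in DMSO, 2.86, 3.26 and 3.19 after DSF, 7.39, 6.44 and 6.75 after NSM and 6.28, 6.97 and 6.11 after DSF+NSM. Each treated group lay above DMSO without overlap, and NSM replicate 3 fell within its group. The fold was 1.47, 3.25 and 3.06, with an exact two-sided permutation p = 0.1 each, the smallest that 3 against 3 libraries can give. EIF2S3 to EIF2S1 was 2.20 ± 0.036 (SD, n = 3) in DMSO, 2.93 ± 0.11 after DSF, 3.44 ± 0.37 after NSM and 3.36 ± 0.35 after DSF+NSM, again above DMSO in every treated library. EIF2S2 to EIF2S3 was 0.958 ± 0.070 in DMSO and 1.06 ± 0.041 after DSF, which overlapped, and 2.01 ± 0.22 after NSM and 1.93 ± 0.26 after DSF+NSM. All 7 ratios compared, in 21 comparisons with DMSO, thus reached no p below 0.1.

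**Figure D2:**
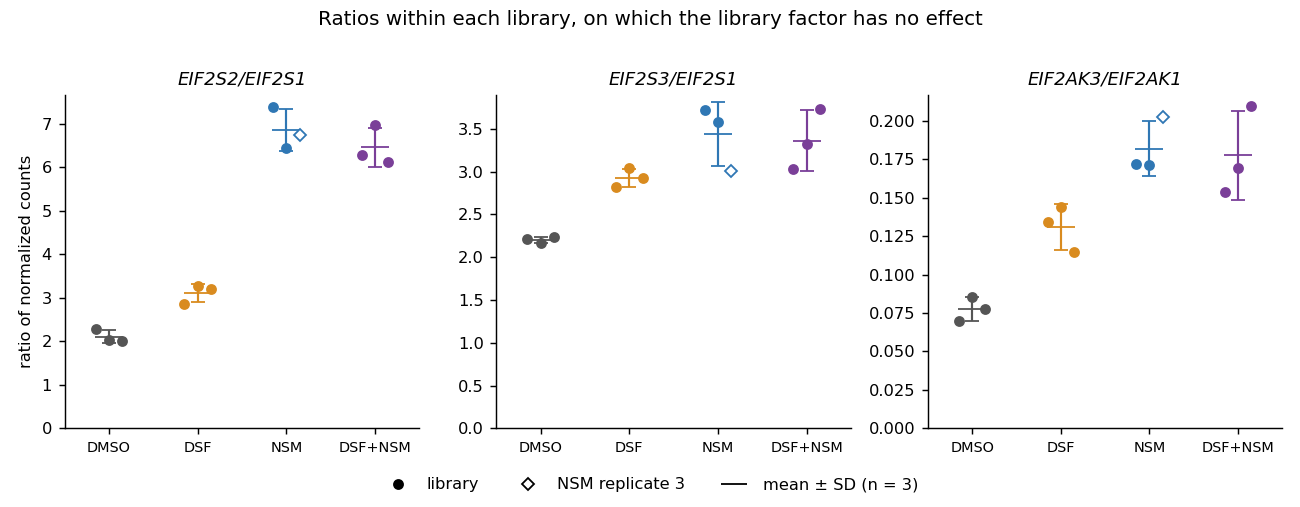
Ratios of normalized counts within each library (y axes start at 0) for EIF2S2 to EIF2S1, EIF2S3 to EIF2S1 and EIF2AK3 to EIF2AK1; x axis, group; points, libraries; open diamond, NSM replicate 3; bars, mean ± SD (n = 3). Every treated library lies above the DMSO libraries in all 3 panels, and the EIF2S2 to EIF2S1 ratio reaches 6.11 or more in every library with niclosamide.

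Per kilobase of merged exons (GENCODE 44), in DMSO, the EIF2S2 level was 1993 ± 97.9 (SD, n = 3), the EIF2S3 level 1304 ± 31.0, the EIF2AK1 level 703 ± 19.2 and the EIF2S1 level 455 ± 12.9. EIF2AK1 thus stood highest among the kinases, ahead of EIF2AK4 at 119 ± 6.08, EIF2AK2 at 38.8 ± 4.42 and EIF2AK3 at 14.5 ± 1.5. OMA1 stood at 143 ± 4.17 and PPP1R15B at 120 ± 7.36. With the length of the longest transcript the order of the first 4 held, EIF2AK3 reached 63.3, above EIF2AK2 at 42.3, and EIF2AK4 reached 258, above OMA1 at 252 and PPP1R15B at 213, so the order among the lower genes depends on the length used. In the annotation (GRCh38), EIF2S1 is on chromosome 14 (67360328 to 67386516), EIF2S2 on chromosome 20 (34088309 to 34112243) and EIF2S3 on chromosome X (24054946 to 24078810), and none of them shares exon bases with another gene. Other copies of these genes were not analysed here, and reads that such copies share with them could have been split by the counting.

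The kinases did not move together. EIF2AK1, the kinase that DELE1 activates, stood at 3796, 3805 and 3983 in DMSO, 3294, 3199 and 3747 after DSF, 3271, 3245 and 5258 after NSM and 2756, 3002 and 2995 after DSF+NSM. The DSF+NSM libraries lay below all others, and in NSM replicate 3 was far above the other 2. No comparison passed the test on the deposited scale with all 12 libraries in one fit without weights or a block. The log2 fold change against DMSO was -0.18 (95% interval -0.54 to 0.18) after DSF, -0.01 (-0.37 to 0.34) after NSM and -0.41 (-0.76 to -0.05, adjusted p = 0.0551, limma) after DSF+NSM. Without NSM replicate 3 the fall after NSM was -0.24 (adjusted p = 0.0282, limma) and that after DSF+NSM -0.41 (adjusted p = 0.000372). The latter passed in 8 of 23 alternatives, among them equal sums (-1.19, adjusted p = 4.62e-05, limma), library weights (adjusted p = 3.03e-05) and only DSF+NSM and DMSO in the fit (adjusted p = 0.00156). With equal sums EIF2AK1 was also lower in DSF+NSM than in DSF (-0.91, adjusted p = 0.000493, limma) and in NSM (-0.91, adjusted p = 0.000665). The gene is on chromosome 7 (6022247 to 6059175, minus strand), and 532 of its exon bases are also exon of AIMP2 on the other strand. Since use of strand in counting is not stated, these reads cannot be told apart.

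EIF2AK2 is the kinase that interferon is known to induce. The RefSeq promoter window, 250 bases before to 50 after the start (GRCh38.p14, minus strand, chr2:37156931-37157230), is shown because it holds the letters of an interferon element across the start (bases 245 to 254 of the window, on the gene's strand) and of an E-box upstream (bases 70 to 75), both in capitals.
EIF2AK2: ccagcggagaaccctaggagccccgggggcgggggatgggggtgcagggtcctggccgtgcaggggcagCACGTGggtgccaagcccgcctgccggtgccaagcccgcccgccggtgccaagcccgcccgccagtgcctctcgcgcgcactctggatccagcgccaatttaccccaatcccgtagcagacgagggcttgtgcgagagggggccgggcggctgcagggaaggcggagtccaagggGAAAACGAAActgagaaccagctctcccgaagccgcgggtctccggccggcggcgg

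EIF2AK2 was 380, 427 and 477 in DMSO, 418, 365 and 412 after DSF, 330, 283 and 717 after NSM and 183, 178 and 246 after DSF+NSM. The 3 DSF+NSM libraries were below all others, while the other groups overlapped. After DSF+NSM it fell to 0.47 of DMSO (log2 -1.09, SE 0.28, adjusted p = 0.00633, limma), under all alternatives. It was also lower than after DSF (log2 -0.99, adjusted p = 0.0137, limma) and than after NSM (-1.02, adjusted p = 0.0137). Of these, the former missed the threshold without DSF+NSM replicate 2 (adjusted p = 0.0517) and the latter without DSF+NSM replicate 1 or 2 and with only those groups in the fit (adjusted p up to 0.0865). DSF changed it by -0.10 (95% interval -0.72 to 0.52) and NSM by -0.07 (-0.69 to 0.55), of which the NSM value was -0.48 (adjusted p = 0.0172, limma) without NSM replicate 3. Of its exon bases, 35 are shared with GPATCH11 and 401 with ARL14EPP1 on the other strand.

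Interferon-stimulated genes, a list of 14, did not share one direction. After DSF 5 rose and none fell, with OAS1 at 1.09 (the synthetase of an RNase L activator) and IRF7 at 1.33, the transcription factor of the interferon response, and with a list median of 0.60 against 0.05 over all genes. After NSM 9 fell and 1 rose, among them IFIT1 at -1.95 and OAS3 at -1.89, with IRF7 at 1.86 and a list median of -0.97 against 0.01. After DSF+NSM 6 fell and 3 rose, with OAS2 at -1.91 and RSAD2 at -1.75 the most lowered, IRF7 at 2.51 and ISG15, a ubiquitin-like modifier, at 2.24 the most raised, and a list median of -0.10 against 0.03. These are log2 fold changes against DMSO. The 5, 10 and 9 of 14 called stand beside 17.8%, 49.1% and 52.8% of all genes. With equal sums the counts were 2 higher and 0 lower, 1 and 9, and 2 and 8. Those after DSF were 9 and 0 without NSM replicate 3, where 41.2% of all genes were called.

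EIF2AK3, the kinase of the endoplasmic reticulum, was the only kinase with a rise called against DMSO over all 12 libraries. Its normalized count was 264, 325 and 308 in DMSO, 441, 460 and 430 after DSF, 563, 555 and 1064 after NSM and 423, 508 and 628 after DSF+NSM. All treated libraries lay above all DMSO libraries, NSM lay above DSF, and DSF+NSM overlapped with both. The log2 fold change was 1.21 after NSM (SE 0.23, adjusted p = 0.00106, limma), which passed the test in all alternatives and was 0.91 without NSM replicate 3. After DSF it was 0.57 (SE 0.23, adjusted p = 0.110, limma), past the threshold without NSM replicate 3 (adjusted p = 0.00323) and with only DSF and DMSO in the fit (adjusted p = 0.000104). After DSF+NSM it was 0.78 (SE 0.23, adjusted p = 0.0139, limma), but -0.00094 with equal sums and not called without DMSO replicate 1 or DSF+NSM replicate 3. NSM exceeded DSF by 0.64 (adjusted p = 0.0419, limma), which was lost in 11 of 23 alternatives (adjusted p up to 0.14), among them leaving out any DMSO or DSF library, NSM replicate 3, where it was 0.33, or DSF+NSM replicate 2. The ratio of EIF2AK3 to EIF2AK1 within a library was 0.0774 ± 0.0078 (SD, n = 3) in DMSO, 0.131 ± 0.015 after DSF, 0.182 ± 0.018 after NSM and 0.177 ± 0.029 after DSF+NSM, with no overlap between any treated group and DMSO (exact permutation p = 0.1). The annotated gene (chromosome 2, 88556741 to 88691518, minus strand) shares 781 exon bases with an antisense gene.

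Genes of the unfolded protein response of the endoplasmic reticulum, a list of 11, rose in part. After DSF 5 rose and 0 fell (list median 0.37), after NSM 4 rose and 2 fell (0.24), and after DSF+NSM 8 rose and 1 fell (0.85). Of all genes 11.9%, 25.4% and 28.3% rose and 5.95%, 23.7% and 24.5% fell, so that the number called after NSM, 6 of 11, is near the background of 49.1%. With equal sums the last count was 3 higher and 2 lower, and without NSM replicate 3 it was 8 and 2. Of all genes, 67.5% and 67.8% were called in these settings. HSPA5 (BiP), the chaperone that holds EIF2AK3 inactive, rose in all 3 comparisons by 0.68, 1.70 and 2.27 (log2). DNAJB9, its cofactor, was the most raised after DSF at 1.47, ahead of HERPUD1 at 0.98. HERPUD1, a part of the degradation machinery, stood at 1.64 after NSM and 1.72 after DSF+NSM. SDF2L1 and CRELD2 fell after NSM (-1.19 and -0.88), and PDIA4, a disulfide isomerase, fell after DSF+NSM (-0.65).

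EIF2AK4, which is activated by uncharged tRNA, fell with the drugs combined and with neither alone. It was 1347, 1480 and 1467 in DMSO, 1538, 1470 and 1507 after DSF, 1785, 1723 and 1527 after NSM and 831, 868 and 1061 after DSF+NSM. The DSF+NSM libraries lay below all the others, and this was the only one of the 9 genes for which NSM replicate 3 was the lowest NSM library. The log2 fold change after DSF+NSM was -0.64 against DMSO (SE 0.12, adjusted p = 0.00082, limma), -0.72 against DSF (adjusted p = 0.000581) and -0.87 against NSM (adjusted p = 0.000182). These 3 calls held in all alternatives. After DSF it was 0.07 (95% interval -0.19 to 0.34) and after NSM 0.23 (-0.04 to 0.49), the latter 0.29 (adjusted p = 0.0261, limma) without NSM replicate 3 and -0.04 with equal sums. EIF2AK4 is on chromosome 15 (39934115 to 40035591) and shares no exon bases with another gene.

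Proteins that activate or restrain these kinases, a list of 8, were mixed. After DSF 1 rose, HSPA5. After NSM 4 rose and 1 fell, with PRKRA, an activator of EIF2AK2, at 1.05 next to HSPA5, and with GCN1, a partner of EIF2AK4 on the ribosome, at -0.61. After DSF+NSM 2 rose, HSPA5 and DNAJC3, an inhibitor of EIF2AK3 and EIF2AK2, at 1.10, and 3 fell, among them IMPACT, an inhibitor of EIF2AK4, at -1.47 and GCN1 at -0.84. The list medians were 0.02, 0.46 and -0.05 (log2) against 0.05, 0.01 and 0.03 over all genes, and 1, 5 and 5 of 8 called stand beside 17.8%, 49.1% and 52.8% of all genes. With equal sums the split was 1 higher and 0 lower, 3 and 1, and 1 and 4. The count after DSF was 2 higher and 2 lower without NSM replicate 3, where 41.2% of all genes were called.

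OMA1, the relay protease, fell after DSF+NSM. It stood at 527, 549 and 519 in DMSO, 334, 319 and 323 after DSF, 356, 487 and 1175 after NSM and 249, 188 and 382 after DSF+NSM. All DSF and DSF+NSM libraries lay below all DMSO libraries, and NSM ran from below to above them. The fall after DSF+NSM was -1.02 (SE 0.36, adjusted p = 0.0294, limma), lost without any of the DMSO libraries or without DSF+NSM replicate 1 or 2 (adjusted p up to 0.122). After DSF it was -0.71 (SE 0.36, adjusted p = 0.194, limma), with adjusted p = 0.0101 without NSM replicate 3 and 2.91e-06 with only DSF and DMSO in the fit. After NSM the value was 0.15 (95% interval -0.63 to 0.92) with replicate 3 and -0.35 (adjusted p = 0.182, limma) without it. DSF+NSM was lower than NSM (-1.17, adjusted p = 0.0215, limma, and -0.67, adjusted p = 0.0199, without NSM replicate 3), which missed the threshold without DSF+NSM replicate 1 or 2 and with only those groups in the fit (adjusted p up to 0.109). OMA1 (chromosome 1, 58415384 to 58546802, minus strand) shares 257 exon bases with DAB1 on the same strand.

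Around OMA1, 15 genes of mitochondrial protein quality control were followed, of which 1 changed after DSF, 6 after NSM and 6 after DSF+NSM, below the 17.8%, 49.1% and 52.8% of all genes. DELE1, the substrate of OMA1, listed as KIAA0141, was not called: 804, 805 and 736 in DMSO, 1210, 1256 and 996 after DSF, 900, 866 and 502 after NSM and 996, 964 and 978 after DSF+NSM. All DSF and DSF+NSM libraries of DELE1 lay above DMSO, with log2 fold changes of 0.55 (adjusted p = 0.0681, limma) and 0.33 (adjusted p = 0.180), and NSM with -0.09 lay on both sides. Without NSM replicate 3 the DSF value passed the test (adjusted p = 0.000367, limma), and with equal sums the DSF+NSM value was -0.46. HSPD1 (HSP60), the matrix chaperonin, fell after DSF (-0.74) and rose after DSF+NSM (1.02). HSPA9 (mortalin) rose after NSM by 0.92 and YME1L1, the protease that degrades OMA1, by 0.51. LONP1, a matrix protease, rose after DSF+NSM by 1.07. PHB1, a prohibitin listed as PHB, fell after NSM (-1.10) and after DSF+NSM (-0.58), SPG7 after NSM (-0.85) and AFG3L2 after DSF+NSM (-0.47), the last 2 being subunits of a matrix-facing protease. The list medians were -0.11, -0.13 and 0.25 (log2), and the split was 0 higher and 1 lower, 2 and 4, and 4 and 2. With equal sums it was 0 and 2, 1 and 7, and 0 and 9, where 18.2%, 49.9% and 67.5% of all genes were called. Without NSM replicate 3 it was 2 and 3, 3 and 6, and 8 and 3, where 41.2%, 59.9% and 67.8% were called.

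PPP1R15B, the constitutive targeting subunit of the phosphatase that reverses the switch, lay above DMSO in every treated library. Its promoter window (RefSeq, GRCh38.p14, minus strand, chr1:204411768-204412067) is shown because it holds, at bases 24 to 31 of the window and on the opposite strand, the letters of the composite C/EBP-ATF element, in capitals.
PPP1R15B: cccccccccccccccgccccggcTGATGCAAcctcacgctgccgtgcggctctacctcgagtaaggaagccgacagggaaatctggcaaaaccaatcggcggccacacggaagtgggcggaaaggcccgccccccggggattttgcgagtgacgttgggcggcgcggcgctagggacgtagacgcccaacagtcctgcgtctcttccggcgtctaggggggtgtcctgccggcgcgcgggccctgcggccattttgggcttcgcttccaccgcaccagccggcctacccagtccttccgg

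The normalized count of PPP1R15B was 1041, 1150 and 1167 in DMSO, 1447, 1677 and 1314 after DSF, 1920, 1703 and 2983 after NSM and 2762, 2663 and 3522 after DSF+NSM. The DMSO, DSF and NSM libraries did not overlap and stood in that order, and DSF+NSM overlapped with NSM through NSM replicate 3. The fold was 1.91 after NSM (log2 0.93, SE 0.19, adjusted p = 0.00171, limma) and 2.65 after DSF+NSM (log2 1.40, SE 0.19, adjusted p = 7.12e-05), and these calls held in all alternatives, at 0.66 and 0.62 with equal sums. After DSF the change was 0.40 (SE 0.19, adjusted p = 0.178, limma), past the threshold without NSM replicate 3 (adjusted p = 0.0131) and with only DSF and DMSO in the fit (adjusted p = 0.0008). DSF+NSM exceeded DSF by 1.01 (adjusted p = 0.0013, limma), or by 0.32 (adjusted p = 0.185) with equal sums. Against NSM the change was 0.47 (adjusted p = 0.0731, limma), or 0.71 (adjusted p = 0.000371) without NSM replicate 3 and -0.045 (adjusted p = 0.866) with equal sums. NSM exceeded DSF by 0.54 (adjusted p = 0.0395, limma), which was lost in 10 of 23 alternatives (adjusted p up to 0.163), among them leaving out any DMSO library, DSF replicate 1 or 3, NSM replicate 3, where it was 0.30, or DSF+NSM replicate 1.

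The inducible partner moved further. PPP1R15A (GADD34), which takes the same place in the phosphatase under stress, was 485, 500 and 478 in DMSO, 4428, 5252 and 3450 after DSF, 12917, 10010 and 12230 after NSM and 36939, 38333 and 26650 after DSF+NSM. The 4 groups did not overlap, and the log2 fold changes were 3.14, 4.58 and 6.10. PPP1R15A was below PPP1R15B in every DMSO library and above it in every treated one. The ratio of PPP1R15A to PPP1R15B was 0.437 ± 0.028 (SD, n = 3) in DMSO, 2.94 ± 0.27 after DSF, 5.57 ± 1.3 after NSM and 11.8 ± 3.7 after DSF+NSM (exact permutation p = 0.1 for each against DMSO). Of the catalytic subunits PPP1CA, PPP1CB and PPP1CC none was called against DMSO, with log2 fold changes from -0.53 to 0.51. Of all genes, 17.8%, 49.1% and 52.8% were called in these comparisons. This depended on the setting. Together with PPP1R15A they make a list of 4, of which 1 was higher and 3 lower after DSF+NSM with equal sums (67.5% of all genes called). Without NSM replicate 3, 1 of the list was higher and 2 lower after DSF (41.2% of all genes called). PPP1R15B to EIF2S1, the targeting subunit against its substrate, was 0.463 ± 0.018 in DMSO, 0.911 ± 0.18 after DSF, 1.24 ± 0.15 after NSM and 1.59 ± 0.30 after DSF+NSM, also without overlap with DMSO.

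Promoter windows were found for 7 of the 9 genes. EIF2S2 and EIF2AK1 were not in the table. On both strands, 7 motifs were searched, with the share of 34796 promoter windows that hold each: the C/EBP-ATF element TTGCATCA (0.871%), the cyclic AMP element TGACGTCA (1.84%), the E-box CACGTG (7.2%), the interferon element, GAAA and GAAA with 2 bases between (3.57%), the heat shock element, GAA, TTC and GAA with 2 bases between each (0.491%), the ER stress element, CCAAT and CCACG with 9 bases between (0.0776%) and the antioxidant element TGACNNNGC (13.3%). Beside the matches in EIF2AK2 and PPP1R15B, only OMA1 held any of these letters, those of the antioxidant element. A match is a description of letters, and EIF2S1, EIF2S3, EIF2AK3 and EIF2AK4 held none of these motifs in the window.

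**Figure D3:**
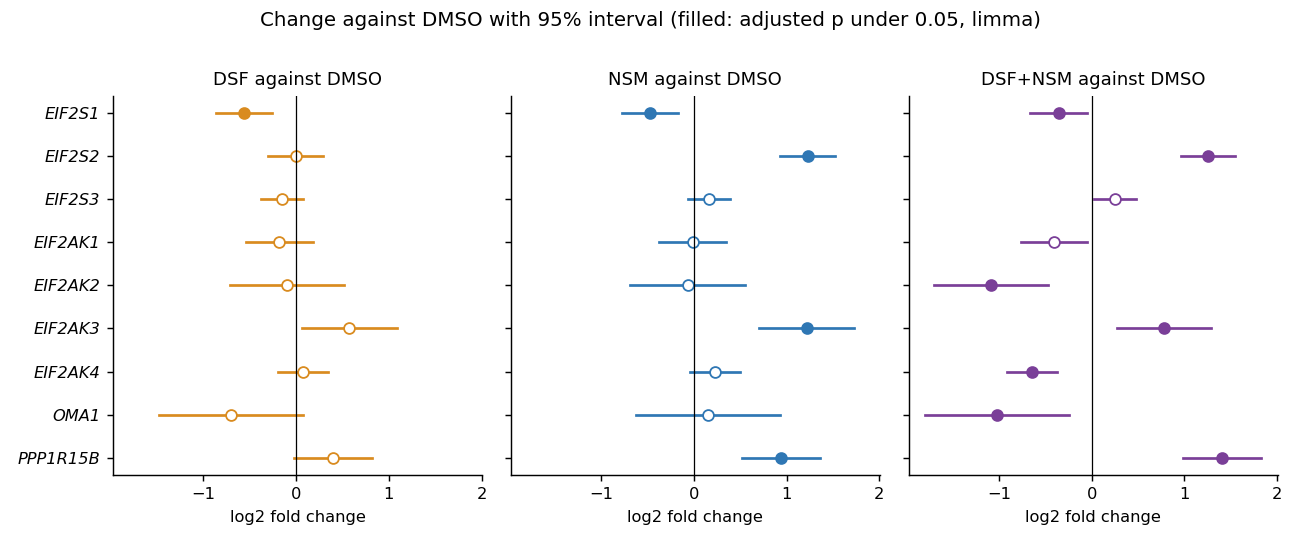
Log2 fold change of the 9 genes against DMSO (x axis) after DSF, NSM and DSF+NSM; points, estimates of the limma fit over 12 libraries; lines, 95% intervals; filled points, adjusted p under 0.05. EIF2S2 and PPP1R15B lie near 0.93 to 1.40 after NSM and DSF+NSM, while EIF2AK2 and EIF2AK4 lie below 0 with filled points only after DSF+NSM, at -1.09 and -0.64.

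Between the treated groups, DSF+NSM differed from DSF in 5 of 9 genes, where 43.1% of all genes differed. EIF2S2, EIF2S3 and PPP1R15B were higher (background 21.7%) and EIF2AK2 and EIF2AK4 lower (21.4%). DSF+NSM differed from NSM in 3 of 9, all lower (EIF2AK2, EIF2AK4 and OMA1), where 38.6% of all genes differed, 20.3% higher and 18.3% lower. NSM differed from DSF in 4 of 9, all higher (EIF2S2, EIF2S3, EIF2AK3 and PPP1R15B), where 44.4% of all genes differed, 21% higher and 23.4% lower. The counts were 7, 5 and 2 without NSM replicate 3, where 60.2%, 49.2% and 52.3% of all genes differed. With equal sums they were 1 higher (EIF2S2) and 6 lower for DSF+NSM against DSF, with EIF2S3 turned to a fall, 0 higher and 8 lower against NSM, and 1 higher (EIF2S2) for NSM against DSF. All genes leaned the same way there. Of 13523 tested, 976 were higher and 7277 lower for DSF+NSM against DSF, and 1315 and 6069 against NSM. For NSM against DSF, 1912 were higher and 4106 lower.

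Whether the drugs' changes added up on the log2 scale was tested by the interaction, the change after DSF+NSM minus the sum of the changes after DSF and after NSM. It passed the test for 3 of 9 genes, a share near that of all genes, of which 26.1% passed, 1 above 0 (background 12.1%) and 2 below (14%). For EIF2AK4 the single changes summed to 0.30 and the combined change was -0.64, an interaction of -0.95 (SE 0.17, adjusted p = 0.002, limma) that held in all 22 alternatives. For EIF2AK3 the sum was 1.79 and the combined change 0.78, an interaction of -1.01 (SE 0.33, adjusted p = 0.0411, limma), which was lost in 10 alternatives (adjusted p up to 0.107), among them leaving out any DMSO or DSF library or DSF+NSM replicate 1 or 2. For EIF2S1 the sum was -1.04 and the combined change -0.36, an interaction of 0.68 (SE 0.20, adjusted p = 0.0238, limma), which was 0.26 (adjusted p = 0.326) with equal sums and was also lost without DMSO replicate 2 or 3, DSF replicate 2, NSM replicate 2 or DSF+NSM replicate 1. EIF2S2 (1.22 against 1.26) and PPP1R15B (1.33 against 1.40) lay near additivity, with interactions of 0.04 (95% interval -0.38 to 0.45) and 0.07 (-0.52 to 0.67). EIF2AK2 had an interaction of -0.92 that missed the threshold (adjusted p = 0.112, limma) and passed it with equal sums (adjusted p = 0.024) and without NSM replicate 2.

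**Figure D4:**
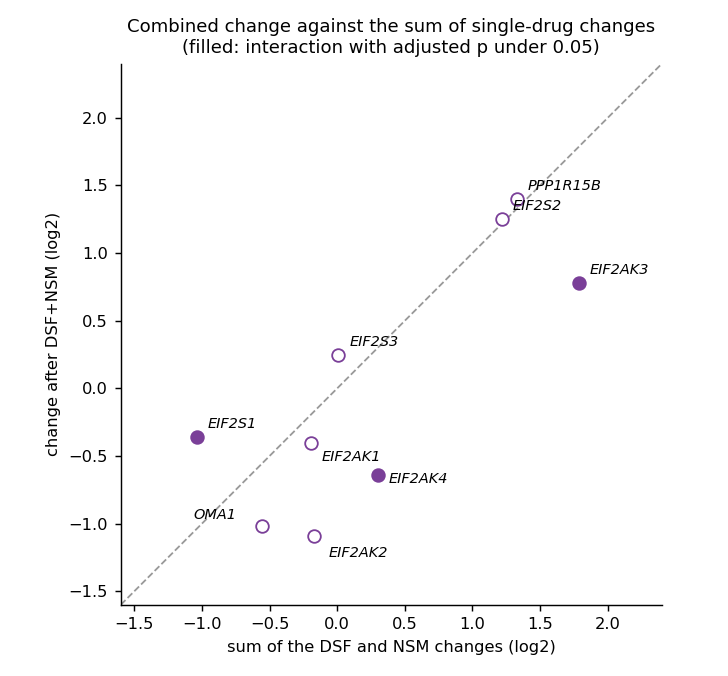
Log2 fold change against DMSO after DSF+NSM (y axis) against the sum of the changes after DSF and after NSM (x axis) for the 9 genes; dashed line, additivity; filled points, interaction with adjusted p under 0.05 by limma. EIF2AK3 (sum 1.79, combined 0.78) and EIF2AK4 (0.30, -0.64) lie below the line and EIF2S1 (-1.04, -0.36) above it.

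In the machinery around eIF2, a list of 17, 1 gene rose and 6 fell after DSF, 3 rose and 5 fell after NSM and 5 rose and 5 fell after DSF+NSM, with list medians of -0.30, -0.30 and -0.01 (log2) against 0.05, 0.01 and 0.03 over all genes. Of all genes, 17.8%, 49.1% and 52.8% were called in these comparisons. With equal sums the split of the list was 1 higher and 8 lower, 1 and 9, and 2 and 12. The eIF2B subunits, the exchange factor that the phosphorylated alpha subunit blocks, went apart. EIF2B1, the regulatory alpha subunit, fell after NSM (-1.03, adjusted p = 2.01e-05, limma) and after DSF+NSM (-0.91, adjusted p = 3.51e-05). EIF2B2 rose after NSM (0.59, adjusted p = 0.00358, limma) and after DSF+NSM (0.79, adjusted p = 0.000396), but neither was called with equal sums, at 0.32 and 0.01. EIF2B3 fell after NSM (-0.62), and EIF2B4 and EIF2B5 were not called, between -0.30 and -0.01. EIF1, which guards start codon choice, rose in all 3 comparisons, by 0.83, 2.12 and 2.20. EIF1AX, its partner on the ribosome, fell in all 3 (-1.08, -0.87 and -1.02). EIF5, the GTPase activator of eIF2, rose after DSF+NSM by 1.24, EIF2A rose after NSM by 0.81, EIF5B fell after DSF (-0.87) and DENR after DSF+NSM (-0.97). EIF5B was 6477, 6605 and 6286 in DMSO, 3459, 2990 and 4241 after DSF and 3217, 3457 and 7363 after NSM. NSM replicates 1 and 2 thus lay within the range of DSF, and NSM replicate 3 lay above DMSO. The DSF+NSM libraries, at 7645, 7261 and 5344, lay on both sides of DMSO. The count after DSF was 2 higher and 10 lower without NSM replicate 3, where 41.2% of all genes were called.

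Genes downstream of the switch rose broadly. Of 20 listed outputs of the integrated stress response 19 were tested, FGF21 not being among the genes listed. After DSF 16 rose and 0 fell (list median 1.00), after NSM 18 rose and 0 fell (2.02) and after DSF+NSM 17 rose and 1 fell (1.54), where the median of all genes was 0.05, 0.01 and 0.03 and 11.9%, 25.4% and 28.3% of all genes rose. With equal sums the counts were 13 higher and 0 lower, 18 and 0, and 11 and 3. ATF4, the factor whose translation the switch favours, rose by 0.67, 1.57 and 1.53 in RNA, and DDIT3 (CHOP) rose by 3.14, 4.85 and 4.99. GDF15, a secreted stress cytokine, was the most raised, by 5.88, 5.74 and 7.92. ATF3 rose by 5.85 after DSF+NSM, and STC2 was the only one to fall, after DSF+NSM (-0.74). The interaction passed the test below 0 for 14 of the 19 and above 0 for none (list median -1.44), where 14% of all genes passed it below 0 and 12.1% above.

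By likeness over the 12 libraries (Pearson's r of log2 values, over all genes tested), the nearest genes were LOC646719 and CCDC58 for EIF2S1 (0.985 and 0.973), LSM1 and INTS12 for EIF2S2 (0.988 and 0.987), and HSPA4 and YME1L1 for EIF2S3 (0.973 and 0.972). For the kinases they were LEO1 and GXYLT1 for EIF2AK1 (0.972 and 0.961), FRMD3 and FAM120A for EIF2AK2 (0.973 and 0.972), FCER1G and FOXN3 for EIF2AK3 (0.981 and 0.980), and BRD3 and SLC35E2B for EIF2AK4 (0.988 and 0.981). They were EHBP1 and DPY19L4 for OMA1 (0.985 and 0.983) and KIAA0232 and SDCBP for PPP1R15B (0.988 and 0.987). The libraries share their groups and depths, and the nearest gene stayed the same without NSM replicate 3 for 3 of the 9, EIF2S1, EIF2AK1 and EIF2AK4.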

How the data were processed

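Per the labels and the study's methods, poly(A) RNA was made into TruSeq libraries and sequenced on a NextSeq. The study's methods name trimmomatic, STAR and Salmon in nf-core/rnaseq and DESeq2 on GRCh38, whereas the submitters' processing notes name bcl2fastq 2.19, Trimmomatic, Bowtie2, Picard, featureCounts, DESeq2 and hg38. Which of these made the files was not settled. Each library has 1 deposited table. Its values are a signal, the authors' normalized count of each gene, and per the file headers 24 libraries were normalized together, of which 12 were used here. Only 27.8 to 30.3% of nonzero values were whole multiples of a library's step (tolerance 0.001), so reads were not recovered and depth is an estimate.

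After log2(value + 1), the 13502 genes that reached 10 in 3 or more libraries were fitted in R 4.3.3 by limma 3.58.1, with a mean for each group over the 12 libraries, a robust trended prior and no replicate block. Calls were made at 0.05 after Benjamini-Hochberg adjustment over all genes. Fold changes are on that scale. The DMSO, DSF, NSM and DSF+NSM groups were compared in 7 contrasts. The study's DESeq2 was not used, since it needs counts. Promoters came from RefSeq (GRCh38.p14), gene models from GENCODE 44, and ratios and exact permutation tests from Python 3.11.15 with scipy 1.17.1. Figures were drawn with matplotlib 3.10.9. The fit was also run on simulated data, with changes in DSF only, the same spread in every group and no library standing apart. That setting differs from these libraries, so the run does not show how the fit does on them.

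Alternatives were other scalings, filters, pseudocounts (0.1 and 10), library weights, the groups compared alone, a replicate block and each library left out. The 9 genes and the 7 lists were chosen with earlier results of these data known. Named beyond the 9 are the 2 called genes with the largest rise and fall of each list against DMSO, EIF2B1 to EIF2B5, PPP1R15A, DELE1, ATF4, DDIT3 and the 2 nearest genes of each member. PPP1CA, PPP1CB, PPP1CC, DNAJC3 and YME1L1 are given as list members beside them. The labels call the libraries independent experiments, and p-values measure the spread between these libraries. In the main fit that spread is shared per gene over all 12 libraries. The p-values for DSF against DMSO thus also carry the spread of the groups with niclosamide, NSM replicate 3 included. For OMA1 the SD was 15.5 in DMSO, 7.79 in DSF and 440 in NSM, and the SE was 0.36 in each comparison with DMSO.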

Additional observations from a re-analysis of the deposited data

Results flagged for a closer look

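For 3 of the 9 genes the effect of NSM was not the same in the presence of DSF as in its absence, by the interaction term of limma over all genes tested, a share near the 26.1% of all genes that passed it. EIF2S1 fell by 0.48 after NSM against DMSO and differed by 0.21 between DSF+NSM and DSF, an interaction of 0.68 (log2, adjusted p = 0.0238). EIF2AK3 rose by 1.21 against DMSO and differed by 0.21 between DSF+NSM and DSF, an interaction of -1.01 (adjusted p = 0.0411). EIF2AK4 differed by 0.23 against DMSO and fell by 0.72 between DSF+NSM and DSF, an interaction of -0.95 (adjusted p = 0.002). Without NSM replicate 3 these interactions were 0.85, -0.70 and -1.01. The call for EIF2S1 was lost in 7 of 22 alternatives, equal sums among them (0.26, adjusted p = 0.326, limma), and that for EIF2AK3 in 10 of 22 alternatives, while that for EIF2AK4 held in all 22. Their causes were not tested.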

How the results depend on the processing

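Of 1440 log2 fold changes of the 9 genes under alternatives, 1286 stayed on the same side of the threshold with no reversal, 60 came to pass it, 81 ceased to pass it and 13 reversed. Of those 1286, 56 turned their sign with neither value called. The reversals came from 3 settings. With equal sums EIF2S3 was -0.54 and EIF2AK3 -0.00094 after DSF+NSM against DMSO. Against DSF, EIF2S1 was -0.48 and EIF2S3 -0.28 after DSF+NSM. Against NSM, EIF2S1 was -0.40, EIF2S2 -0.48 and EIF2S3 -0.43. With equal sums without rRNA EIF2S3 was -0.41 against DMSO, EIF2S1 -0.39 and EIF2S3 -0.19 against DSF, and EIF2S2 -0.39 and EIF2S3 -0.34 against NSM. With library weights EIF2AK2 was -0.41 for NSM against DSF. The cause was not tested, beyond the shift of all genes that these scalings bring.

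The number of the 9 genes called after DSF, 1, was 6 with library weights and 6 with only the groups compared, and 0 to 4 with each library left out. After NSM, 4 became 7 with weights and 3 to 7 with a library left out, and after DSF+NSM, 7 became 4 to 9. For DSF+NSM against DSF, 5 became 8 with weights and 4 to 7. Against NSM, 3 became 8 with equal sums, 7 without rRNA, 6 with weights, 1 with only the groups compared and 1 to 5. For NSM against DSF, 4 became 1 with equal sums, 1 without rRNA, 7 with weights, 1 with only the groups compared and 1 to 5. The interaction, 3, became 6 with weights and 1 to 4. Over all genes tested, calls with each library left out ran from 911 to 5551 after DSF, where 2405 were called, from 5416 to 8076 after NSM and from 5974 to 9130 after DSF+NSM. After DSF 7972 of 13502 were called with weights and 7150 of 12766 with only the groups compared. With weights 9314 were called after NSM and 9898 after DSF+NSM. They were 8722 for DSF+NSM against DSF, 7858 against NSM, 8342 for NSM against DSF and 7625 for the interaction. For DSF+NSM against NSM, 5212 became 7384 with equal sums, 6784 without rRNA and 2483 with only the groups compared. For NSM against DSF, 5991 became 6018, 6004 and 3886.

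Without NSM replicate 3 the calls after DSF were 12 of 17 of the eIF2 machinery, 4 of 8 kinase regulators and 3 of 4 of the phosphatase. Of the mitochondrial list 5 of 15 were called there, and of the interferon list 9 of 14. The calls after NSM were 2 of 4 of the phosphatase, and those after DSF+NSM 11 of 15 of the mitochondrial list. In that fit 41.2%, 59.9% and 67.8% of all genes were called after DSF, NSM and DSF+NSM. With equal sums the calls were 2 of 15 of the mitochondrial and 2 of 14 of the interferon list after DSF. They were 2 of 4 of the phosphatase after NSM, and 4 of 4 of it and 5 of 11 of the endoplasmic reticulum list after DSF+NSM. With that scaling 18.2%, 49.9% and 67.5% of all genes were called after DSF, NSM and DSF+NSM. Per kilobase of the longest transcript the DMSO levels were 582 for EIF2S1, 1539 for EIF2S3, 875 for EIF2AK1, 63.3 for EIF2AK3, 258 for EIF2AK4, 252 for OMA1 and 213 for PPP1R15B.

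Same-numbered libraries of different groups deviated together weakly at most, with correlations of -0.064 to 0.278 (median 0.057) over 18 pairs, of which 2 were over 0.1. The 36 other pairs had -0.233 to 0.239 (median -0.026), of which 3 were over 0.1. The highest, 0.278, was between replicate 3 of NSM and replicate 3 of DSF+NSM. Each deviation is from a mean of only 3 libraries, so these correlations do not settle whether the replicate numbers pair the libraries. The main fit did not pair them. With the replicate block the counts of the 9 genes called were 1, 4, 7, 5, 3, 5 and 3 in the order above. Under the block the call of EIF2S1 after DSF+NSM was lost (adjusted p = 0.0523, limma), and those of EIF2AK1 after DSF+NSM (adjusted p = 0.0346) and of OMA1 for NSM against DSF (adjusted p = 0.0397) were gained. With 3 libraries a group and an estimated depth, values that miss the threshold do not show that a gene did not change.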
